A study of Mus musculus with 6 samples.

Results

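The genes described here encode the translation initiation factors and the eIF2 kinases. Members were all rows of the deposited gene table whose symbol begins with Eif1 to Eif6, whose transcript type includes protein-coding, and whose symbol does not mark a pseudogene. There were 69 such rows of 25407, and 8 further rows with such symbols were left out as pseudogene or lncRNA rows. The 6 RNA libraries came from CT26.WT, a chemically induced, undifferentiated mouse colon carcinoma line. The 3 treated libraries came from cells given Cu2O@AuMn@HA (a particle with copper oxide, gold and manganese), NaHS (a donor of hydrogen sulfide) and NIR (near-infrared light) together, and the 3 control libraries from the control group. Both groups are the same line, and the sources used here give no dose, no exposure time and no detail of the control treatment. No library analysed here had the particle, NaHS or light alone, so their parts in any difference cannot be told apart.

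Initiation begins when eIF4E binds the cap of an mRNA and the scaffold eIF4G brings in the helicase eIF4A. eIF3 links this complex to the small ribosomal subunit, which carries the initiator tRNA bound to eIF2, and eIF1 and eIF1A guide the choice of start codon. eIF2 must be recharged with GTP by eIF2B, and its phosphorylation by a stress-activated kinase (HRI, PKR, PERK or GCN2) blocks that step. The eIF4E-binding proteins form the other brake: without phosphorylation by mTORC1 they keep eIF4E from eIF4G.

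Control libraries summed to 71409968 to 81821380 estimated counts and treated libraries to 62328377 to 70323604. Values per library are FPKM, the number of fragments divided by transcript length and by library total. A p-value here measures only the spread between these libraries, which may be technical, because nothing in the labels says that they came from separate cultures. In bulk RNA, fewer cells of a type and less RNA per cell cannot be told apart. Of the defining epithelial markers, Epcam and Cdh1 were at 0 in every control library, and the 5 epithelial markers summed to 65.6 to 75.7 FPKM in control and 162 to 184 in treated libraries, nearly all of it Krt18. The mesenchymal markers Vim and Fn1 summed to 1019.6 to 1096 FPKM in control and 1496 to 1595 in treated libraries. The 3 leukocyte markers with a row summed to at most 0.0964 FPKM in any library, and Ptprc was at 0 in every control library. Endothelial markers summed to at most 0.0447 FPKM. The 2 erythroid markers summed to 1.64 to 2.64 FPKM in control and 0.589 to 0.828 in treated libraries, and the part of the epithelial, mesenchymal and erythroid markers in the results was not tested. The libraries numbered 2 stood apart from their groups for transcripts low in guanine and cytosine, as described further on, and values without them are given beside the members whose call they change.

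Most initiation factor genes changed, in both directions. edgeR's quasi-likelihood test, adjusted over all 16212 rows tested with a threshold of 0.05, covered 60 of the 69 members, and it called 23 higher, 21 lower and 16 neither. It called 46.6% of all rows tested, 23.0% as higher and 23.5% as lower. Of the 69 members, 50 had a mean FPKM of at least 1. Among these 50, 14 were called higher (28.0%, against 25.7% of all rows at that level), 21 lower (42.0%, against 33.4%) and 15 neither. Eif4a3l1, 1 of the 14, reached a mean FPKM of 1 only through the treated libraries (mean 0.0928 in control, 2.60 in treated). Of the 60 tested members, 24 had a higher FPKM in every treated than in any control library (30.4% of all rows tested did) and 21 a lower one (27.1%). The median log2 fold change of the tested members was -0.02, and that of all rows tested was 0.06. A call with a fold change of at least 2 was made for 15 members upward (9.87% of all rows tested) and for 3 members downward (5.18%). The 15 were Eif4a2, Eif2s2, Eif3e, Eif3m, Eif1a, the copies Eif4a3l1 and Eif4a3l2, and 8 numbered Eif1ad copies. Those 10 copies passed the filter on low counts only through the treated libraries. They are also among the 23 members called higher and the 24 higher in every treated library, where they had to lie higher. The 3 that fell at least 2-fold were Eif4g1, Eif3b and Eif1ad.

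**Figure D1:**
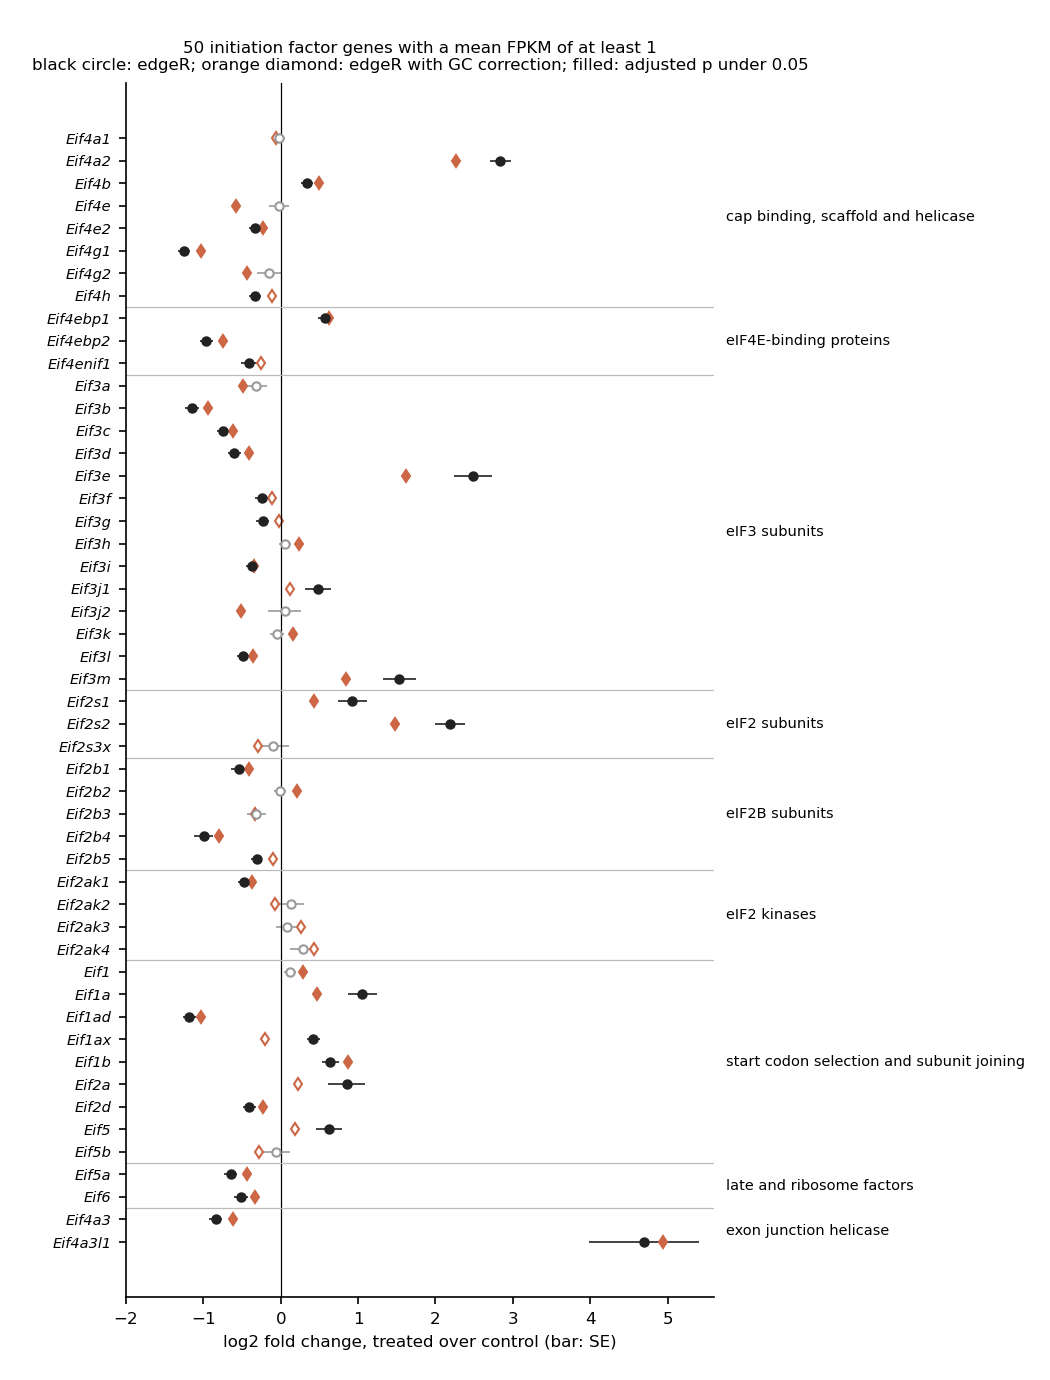
Log2 fold change, treated over control, for the 50 members with a mean FPKM of at least 1, ordered by role; black circles with SE bars are from edgeR, orange diamonds from edgeR with a correction for GC content, and filled symbols passed an adjusted p of 0.05. Most symbols lie within 1 log2 unit of 0, with Eif4a2, Eif3e, Eif2s2, Eif3m and Eif4a3l1 to the right and Eif4g1, Eif3b and Eif1ad to the left.

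The results on the cap complex turn on Eif4e, Eif4g1, Eif4a1 and Eif4a2, so the 250 bases before the start of each are shown. They come from RefSeq on GRCm38.p6, are written 5′ to 3′ in the direction of the gene, and carry in capitals the E-box CACGTG, the letters bound by MYC and related factors. Eif4e had 2 E-boxes, beginning 228 and 64 bases before its start, in the window shown, 1 of its 2 in the table. Eif4g1 had 1 at 54 bases and Eif4a1 had 1 at 189 bases, and Eif4a2 had none.
Eif4e (chr3:138527018-138527267, plus strand): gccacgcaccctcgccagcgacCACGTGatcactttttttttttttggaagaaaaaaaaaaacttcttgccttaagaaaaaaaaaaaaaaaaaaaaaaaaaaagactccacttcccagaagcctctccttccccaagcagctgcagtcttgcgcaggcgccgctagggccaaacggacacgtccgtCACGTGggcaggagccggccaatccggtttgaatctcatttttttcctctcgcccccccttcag
Eif4g1 (chr16:20672477-20672726, plus strand): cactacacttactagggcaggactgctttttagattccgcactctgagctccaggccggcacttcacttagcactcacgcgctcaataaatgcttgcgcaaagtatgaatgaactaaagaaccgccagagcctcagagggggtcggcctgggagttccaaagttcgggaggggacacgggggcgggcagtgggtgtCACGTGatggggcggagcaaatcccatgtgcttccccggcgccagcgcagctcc
Eif4a1 (chr11:69672424-69672673, minus strand): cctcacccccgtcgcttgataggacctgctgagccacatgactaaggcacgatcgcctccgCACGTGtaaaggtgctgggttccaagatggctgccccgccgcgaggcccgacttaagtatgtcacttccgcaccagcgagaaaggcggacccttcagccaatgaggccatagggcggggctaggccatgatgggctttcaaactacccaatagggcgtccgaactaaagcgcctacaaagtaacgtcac
Eif4a2 (chr16:23107218-23107467, plus strand): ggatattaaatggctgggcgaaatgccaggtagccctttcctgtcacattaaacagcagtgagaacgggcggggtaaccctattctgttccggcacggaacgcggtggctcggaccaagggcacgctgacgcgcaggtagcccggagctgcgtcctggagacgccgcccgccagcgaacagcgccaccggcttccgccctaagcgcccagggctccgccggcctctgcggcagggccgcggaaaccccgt

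In the cap complex, the main scaffold gene fell, the minor helicase gene rose and the cap-binding gene did not pass the test. Of the 10 genes of this group, 9 were tested, 2 rose, 3 fell and 4 did not pass. Eif4e, which encodes the cap-binding protein, had 12.2, 9.98 and 10.3 FPKM in control libraries 1 to 3 and 10.2, 13.5 and 9.10 in treated libraries 1 to 3. The groups overlapped, with treated 2 the highest of all, and the log2 fold change was -0.02 ± 0.13 (SE). The GC-corrected fit gave -0.58 for Eif4e and called it lower. Eif4g1 (chromosome 16, 20487063 to 20511634, plus strand, as the deposited file gives it, with the build unnamed in the sources used here) encodes the scaffold that joins eIF4E, eIF4A and eIF3. Its level was 80.9, 87.1 and 84.4 FPKM in control and 39.0, 34.7 and 35.0 in treated libraries. Every treated library lay far below every control library. The mean fell to 43.1% of control (log2 fold change -1.25 ± 0.08, edgeR adjusted p = 3.42e-06). The related scaffold gene Eif4g2, whose protein lacks the eIF4E-binding site, had 15.8, 11.2 and 13.6 FPKM in control and 12.7, 15.3 and 9.45 in treated libraries and did not pass. It was called lower in the GC-corrected fit (log2 fold change -0.43) and without both libraries numbered 2 (-0.41). Eif4g3, a close relative of Eif4g1, was at or below 0.225 FPKM in every library and did not pass, though it was called lower without treated 1 (-0.94). Eif4g1 supplied 86.0 ± 2.45% (SD, n = 3) of the FPKM of the 3 scaffold genes in control and 74.3 ± 4.65% in treated libraries, without overlap.

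The helicase pair moved unevenly. eIF4A1 and eIF4A2 are close relatives that unwind the 5′ leader of an mRNA, and Eif4a1 is the abundant one in most dividing cells. Eif4a1 had 123, 102 and 117 FPKM in control and 114, 122 and 109 in treated libraries, which overlapped, with a log2 fold change of -0.02 ± 0.08. Eif4a2 (chromosome 16, 22926194 to 22932886, plus strand) had 3.12, 2.50 and 3.34 FPKM in control and 21.0, 26.3 and 18.7 in treated libraries. The lowest treated library was several times the highest control library, and the mean rose 7.36-fold (log2 fold change 2.84 ± 0.14, edgeR adjusted p = 9.61e-07). The log2 fold change of Eif4a2 was 2.26 after GC correction and 2.61 without both libraries numbered 2, and it passed in both. Eif4a2 thus went from 2.55 ± 0.200% (SD, n = 3) of the FPKM of the pair in control to 16.0 ± 1.60% in treated libraries. The 2 genes shared no 150-base stretch in their longest transcripts. Eif4a1 shared such stretches with 37.7% of the windows of the left-out row Eif4a-ps4, a pseudogene that carried 94.2, 83.2 and 84.6 FPKM in control and 110.3, 121 and 110.1 in treated libraries, so the level of Eif4a1 is uncertain.

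Of the cofactors of the helicase, Eif4b rose and Eif4h fell. Eif4b had 61.6, 52.0 and 55.5 FPKM in control and 76.0, 75.1 and 68.4 in treated libraries, without overlap, a rise to 129.8% of control (log2 fold change 0.34 ± 0.08, edgeR adjusted p = 0.00458). Eif4h fell to 81.8% of control, and this call was lost after GC correction (log2 fold change -0.11). Eif4e2, whose cap-binding protein does not bind eIF4G and can repress translation, fell to 81.2% of its control level of 12.8 ± 0.442 FPKM (SD, n = 3). Eif4e1b, a relative of Eif4e known from oocytes, was at or below 0.0817 FPKM in every control library, listed at 0 in every treated library, and not tested.

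**Figure D2:**
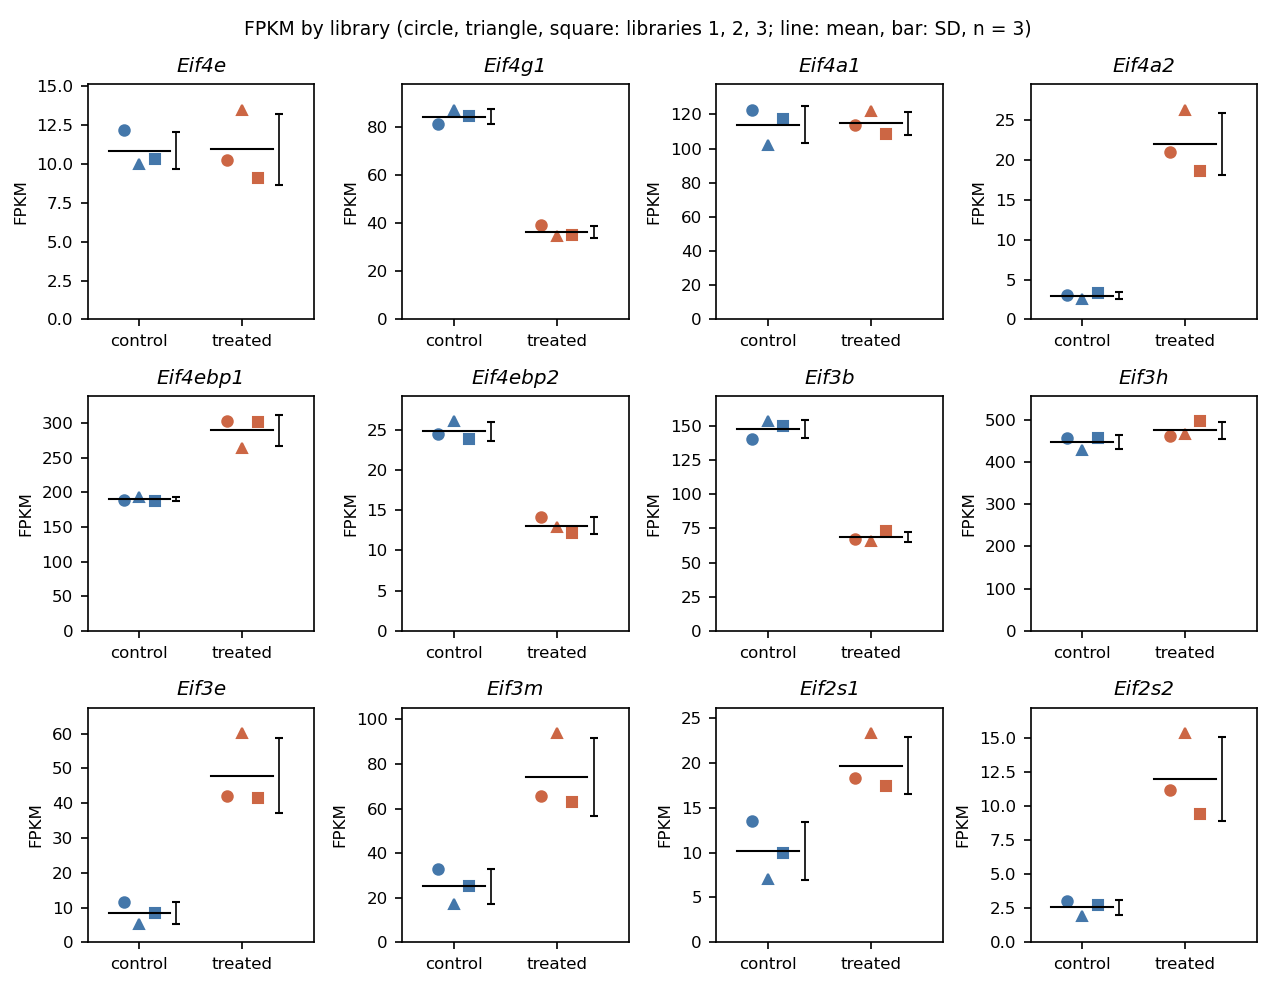
FPKM in each library for 12 members (circle, triangle and square: libraries 1, 2 and 3; horizontal line: mean; bar: SD, n = 3), each panel on its own linear axis from 0. Eif4g1, Eif4ebp2 and Eif3b lie lower in every treated library, and Eif4a2, Eif4ebp1, Eif3e, Eif3h, Eif3m, Eif2s1 and Eif2s2 lie higher. Eif3h does so by a margin that did not pass the test. Library 2 is the lowest control and the highest treated library for Eif4e, Eif4a1, Eif4a2, Eif3e, Eif3m, Eif2s1 and Eif2s2.

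The genes of the eIF4E-binding proteins diverged: the abundant one rose and the minor one fell. Eif4ebp1 (chromosome 8, 27750357 to 27766702, plus strand) had 189, 194 and 188 FPKM in control and 303, 264 and 302 in treated libraries. All 3 treated libraries were higher than all control libraries, and the mean rose to 152% of control (log2 fold change 0.57 ± 0.09, edgeR adjusted p = 4.59e-04). Eif4ebp2 had 24.4, 26.1 and 23.9 FPKM in control and 14.2, 12.9 and 12.2 in treated libraries, and it fell to 52.8% of control without overlap (log2 fold change -0.96 ± 0.08, edgeR adjusted p = 1.29e-05). Both calls stood after GC correction, at 0.63 and -0.74. Eif4ebp1 supplied 88.5 ± 0.296% of the FPKM of the pair in control and 95.7 ± 0.416% in treated libraries (SD, n = 3). Their summed FPKM over that of Eif4e was 17.5, 22.0 and 20.5 in control and 31.0, 20.5 and 34.5 in treated libraries. That ratio was higher in treated libraries 1 and 3 than in any control library, and treated 2 fell among the controls. RNA levels say nothing of the phosphorylation that sets the activity of these proteins. Eif4enif1, which encodes the eIF4E shuttling protein 4E-T, fell to 77.2% of control, a call lost after GC correction (-0.26). Eif4ebp3 was at or below 0.214 FPKM in every library and was not tested.

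The eIF3 genes did not move as a block: of 14, 7 fell, 3 rose and 4 did not pass. eIF3 is the largest initiation factor, built around a core of eIF3a, eIF3b and eIF3c, with the small subunits eIF3g and eIF3i held by eIF3b. Eif3b (chromosome 5, 140405083 to 140429115, plus strand) had 141, 154 and 150.0 FPKM in control and 67.4, 65.7 and 73.0 in treated libraries. The treated libraries were all far below the control libraries, and the mean fell to 46.4% of control (log2 fold change -1.14 ± 0.09, edgeR adjusted p = 8.47e-06). Eif3c fell from 122 ± 1.09 to 74.7 ± 7.47 FPKM (SD, n = 3; log2 fold change -0.75). Eif3a, the largest core subunit, had 13.1, 10.1 and 12.8 FPKM in control and 10.5, 11.7 and 7.54 in treated libraries, which overlapped, and did not pass. Its log2 fold change of -0.32 became -0.49 after GC correction and -0.54 without both libraries numbered 2, and both fits called it lower. Leaving out control 2 (-0.43) or treated 2 (-0.47) alone also gave that call for Eif3a. Among the other subunits, Eif3d, whose protein can itself bind the cap of some mRNAs, fell to 67.7% of control, Eif3i to 79.0% and Eif3l to 73.0%. Eif3f fell to 86.4% and Eif3g to 87.2% of control. Those 2 were near the threshold, with edgeR adjusted p = 0.0462 and 0.0433, and lost the call under most alternatives. Leaving out any 1 library other than treated 3 ended both calls, with log2 fold changes of -0.29 to -0.20 for Eif3f and -0.27 to -0.18 for Eif3g. Without both libraries numbered 2 they were -0.15 and -0.14, not called.

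The risers of eIF3 were Eif3e and Eif3m, with Eif3j1 near the threshold. Eif3e and Eif3m encode subunits with a PCI domain, a fold that helps hold the complex together and that other eIF3 subunits also have. Of the genes for those others, Eif3c and Eif3l fell, and Eif3a and Eif3k did not pass. Eif3e (chromosome 15, 43113454 to 43146115, minus strand) had 11.6, 5.24 and 8.34 FPKM in control and 42.0, 60.3 and 41.6 in treated libraries. All treated libraries were above all control libraries, control 2 was the lowest and treated 2 the highest, and the mean rose 5.71-fold (log2 fold change 2.48 ± 0.25, edgeR adjusted p = 3.51e-05). The log2 fold change of Eif3e was 1.62 after GC correction and 2.06 without both libraries numbered 2. Eif3m had 33.0, 17.1 and 25.3 FPKM in control and 65.5, 94.0 and 62.7 in treated libraries, with library 2 again at both ends. It rose 2.95-fold (log2 fold change 1.53 ± 0.21, edgeR adjusted p = 2.84e-04), with 0.84 after GC correction and 1.13 without both libraries numbered 2. Eif3e was the subunit gene with the lowest GC content (36.2%) and Eif3m followed (38.8%), whereas Eif3b had 55.9%. Eif3h did not pass, at 447 ± 16.0 and 474 ± 19.3 FPKM (SD, n = 3) in control and treated libraries, and neither did Eif3k, at 150.0 ± 7.26 and 148 ± 8.77. After GC correction both were called higher, at 0.24 and 0.16, which for Eif3k turned the direction. Eif3j1, the gene of a loosely held subunit, rose from 2.04 to 2.93 FPKM (edgeR adjusted p = 0.0412), with overlapping groups, and lost the call after GC correction (0.12) and without control 2 (0.43), control 3 (0.42), treated 1 (0.44), treated 2 (0.31) or both libraries numbered 2 (0.29). Its copy Eif3j2 shared 77.1% of its 150-base windows with Eif3j1 and did not pass, so reads of the pair may be split. GC correction turned the log2 fold change of Eif3j2 from 0.05 to -0.51. Without the 2 j genes, the highest subunit gene had 39.3, 81.7 and 54.7 times the FPKM of the lowest in control libraries 1 to 3 and 44.0, 39.9 and 65.8 times in treated libraries 1 to 3.

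Of the eIF2 subunit genes, the 2 for the alpha and beta subunits rose and the gene for the gamma subunit did not pass. Eif2s1 encodes alpha, the subunit that the kinases phosphorylate. It had 13.5, 7.06 and 9.90 FPKM in control and 18.3, 23.3 and 17.4 in treated libraries, and the groups did not overlap. The mean rose to 194% of control (log2 fold change 0.93 ± 0.19, edgeR adjusted p = 0.00283), with 0.43 after GC correction and 0.61 without both libraries numbered 2. Eif2s2 (chromosome 2, 154713330 to 154734855, minus strand) encodes beta, which helps to hold the initiator tRNA. It had 3.02, 1.91 and 2.75 FPKM in control and 11.1, 15.4 and 9.41 in treated libraries, again without overlap. Its mean rose 4.67-fold (log2 fold change 2.19 ± 0.19, edgeR adjusted p = 1.61e-05), with 1.47 after GC correction. Eif2s3x, the X-linked gene of the GTP-binding gamma subunit, had 14.3, 8.18 and 10.8 FPKM in control and 10.4, 13.3 and 8.03 in treated libraries, with full overlap and a log2 fold change of -0.10 ± 0.20. Without both libraries numbered 2 it was called lower, at -0.45.

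None of the 5 eIF2B genes rose, 3 fell and 2 did not pass. eIF2B is the exchange factor that recharges eIF2, with its catalytic site in the epsilon subunit. Eif2b4, for the delta subunit, had 14.3, 15.8 and 13.0 FPKM in control and 6.89, 6.93 and 8.31 in treated libraries, and fell to 51.3% of control without overlap (log2 fold change -0.996 ± 0.13, edgeR adjusted p = 1.61e-04). Eif2b1, for alpha, fell to 70.3% of control (log2 fold change -0.54). Eif2b5, for epsilon, fell from 57.0 ± 2.45 to 47.0 ± 0.694 FPKM (SD, n = 3), a call lost after GC correction (-0.10). Eif2b2, for beta, was at 43.2 ± 1.21 and 43.9 ± 1.80 FPKM, and its log2 fold change turned from -0.01 to 0.21 and was called higher after GC correction. Eif2b3, for gamma, just missed the threshold (log2 fold change -0.32, edgeR adjusted p = 0.0566, 0.0152 to 0.227 over the alternatives) and was called lower without treated 2 (-0.45) and without both libraries numbered 2 (-0.46).

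Of the 4 eIF2 kinase genes, 1 fell and 3 did not pass. Eif2ak1 encodes HRI, the kinase activated by lack of heme and by mitochondrial and oxidative stress. It had 7.63, 7.19 and 7.58 FPKM in control and 5.67, 5.58 and 5.24 in treated libraries. Every treated library was lower, and the mean fell to 73.6% of control (log2 fold change -0.48 ± 0.08, edgeR adjusted p = 6.59e-04), with -0.37 after GC correction. Eif2ak2, for PKR, which senses double-stranded RNA, was at 1.41 ± 0.177 and 1.59 ± 0.276 FPKM in control and treated libraries (SD, n = 3). Eif2ak3, for PERK of the endoplasmic reticulum, was at 2.41 ± 0.167 and 2.61 ± 0.434 FPKM. Eif2ak4, for GCN2, which senses uncharged tRNA, was at 1.60 ± 0.412 and 2.00 ± 0.203 FPKM. The groups overlapped for these 3, and none of the 20 alternatives that tested them called any of them. HRI had the highest level of the 4 in every library, and PERK, GCN2 and PKR followed in that order of control means, with the control libraries of GCN2 and PKR overlapping.

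Among the genes for start codon selection and subunit joining, 5 of 9 rose, 2 fell and 2 did not pass. Eif1 and Eif1b encode near relatives that keep the scanning ribosome from stopping at poor start codons. Eif1b had 19.8, 23.4 and 23.7 FPKM in control and 34.3, 34.8 and 37.9 in treated libraries. It rose to 160.0% of control without overlap (log2 fold change 0.64 ± 0.11, edgeR adjusted p = 0.00104), and to a log2 fold change of 0.86 after GC correction. The more abundant Eif1 had 219, 235 and 229 FPKM in control and 257, 252 and 252 in treated libraries. Its groups did not overlap either, but it passed only in 6 of the 21 alternatives, GC correction among them (0.29). Eif1b supplied 8.90 ± 0.557% of the FPKM of the pair in control and 12.3 ± 0.668% in treated libraries (SD, n = 3).

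eIF1A, which opens the ribosome for scanning, comes from Eif1a and the X-linked Eif1ax. Eif1a had 12.3, 6.81 and 9.88 FPKM in control and 20.2, 24.7 and 16.7 in treated libraries and rose 2.12-fold without overlap (edgeR adjusted p = 0.00121). Its log2 fold change of 1.05 became 0.47 after GC correction, still called. Eif1ax rose from 12.9 ± 0.860 to 17.7 ± 1.62 FPKM (SD, n = 3), but its log2 fold change of 0.42 turned to -0.20 after GC correction and was not called there. Eif1ad, named for its eIF1A-like domain, had 21.0, 22.8 and 21.8 FPKM in control and 10.2, 9.82 and 9.69 in treated libraries. It fell to 45.3% of control, with all treated libraries far below all controls (log2 fold change -1.18 ± 0.08, edgeR adjusted p = 4.71e-06).

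Eif5 encodes the factor that makes eIF2 hydrolyse its GTP at the start codon, and Eif5b the GTPase that joins the large subunit. Eif5 rose to 158% of control (edgeR adjusted p = 0.0122), but the call was lost after GC correction (0.19) and without treated 2 (0.43) or both libraries numbered 2 (0.33). Eif5b was at 2.76 ± 0.609 and 2.72 ± 0.595 FPKM (SD, n = 3) and did not pass, but was called lower without both libraries numbered 2 (log2 fold change -0.37). Eif2a and Eif2d encode factors that can bring the initiator tRNA without eIF2. Eif2a had 2.30, 2.41 and 3.14 FPKM in control and 3.50, 7.03 and 3.98 in treated libraries. Treated 2 stood far above the others, and without it the log2 fold change went from 0.85 to 0.48. The Eif2a call was lost without control 1 (0.73), without control 2 (0.80), without both libraries numbered 2 (0.46) and after GC correction (0.22). Eif2d fell to 77.2% of control (log2 fold change -0.41 ± 0.08, edgeR adjusted p = 0.00312).

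Both late factors fell. Eif5a, the hypusine-bearing factor that helps ribosomes through difficult peptide bonds, was the most abundant member in control libraries, with 699, 715 and 723 FPKM in control and 468, 433 and 499 in treated libraries. It fell to 65.5% of control without overlap (log2 fold change -0.65 ± 0.08, edgeR adjusted p = 1.76e-04; -0.43 after GC correction). Eif6, which keeps the large ribosomal subunit from joining too early, fell from 153 ± 4.96 to 109 ± 8.52 FPKM (SD, n = 3; log2 fold change -0.52).

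Eif4a3 is not an initiation factor in the strict sense but the helicase core of the exon junction complex left by splicing. It had 77.1, 79.8 and 79.2 FPKM in control and 45.4, 41.6 and 48.2 in treated libraries and fell to 57.2% of control without overlap (log2 fold change -0.84 ± 0.09, edgeR adjusted p = 4.16e-05). Its copies Eif4a3l1 and Eif4a3l2 went the other way. Eif4a3l1 had 0, 0.211 and 0.0672 FPKM in control and 2.35, 2.92 and 2.53 in treated libraries, and Eif4a3l2 had 0.131, 0.0852 and 0.0586 in control and 1.44, 1.65 and 1.62 in treated libraries. Both were at the edge of detection in control libraries. The log2 fold change of Eif4a3l1 ran from 4.10 without control 1 to 6.23 without control 2, and that of Eif4a3l2 was 3.97 ± 0.36. The copies aligned with Eif4a3 at 95.6% and 96.4% identity and with each other at 98.5%, and shared at most 0.165% of 150-base windows with Eif4a3. They made up 0.233 ± 0.119% of the FPKM of the 3 genes in control and 8.51 ± 1.20% in treated libraries (SD, n = 3).

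The 15 numbered Eif1ad copies were at 0 in every control library and present in the treated libraries at low level. They lie together on chromosome 12, from 87532731 to 88290796 as the deposited file gives it. The 250 bases before the start of Eif1ad2 are shown because they resemble those of Eif1ad6, the only other copy compared in this way. The sequence is from RefSeq on GRCm38.p6, and the capitals mark a stretch of 209 bases that is also in the window of Eif1ad6.
Eif1ad2 (chr12:87816327-87816576, plus strand): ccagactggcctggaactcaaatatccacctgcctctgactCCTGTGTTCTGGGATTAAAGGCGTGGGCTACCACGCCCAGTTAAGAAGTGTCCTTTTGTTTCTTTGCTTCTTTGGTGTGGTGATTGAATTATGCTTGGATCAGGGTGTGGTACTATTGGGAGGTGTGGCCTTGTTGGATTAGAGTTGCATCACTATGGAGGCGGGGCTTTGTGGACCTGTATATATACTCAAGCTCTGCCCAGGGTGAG
Summed over the copies, treated libraries 1 to 3 had 285, 436 and 236 estimated counts, and 15, 15 and 13 copies were above 0. No copy exceeded 67 estimated counts in a library. Relative to library totals, the treated mean was at least 30.0-fold higher than the control floor of 12 estimated counts per library, which stands for 3 fragments if a fragment weighs about 4 estimated counts. The floor covers counting error only. Of the single copies, Eif1ad8 had 27, 67 and 37 estimated counts, Eif1ad10 had 44, 31 and 29 and Eif1ad19 had 4, 4 and 5 in treated libraries 1 to 3. The 8 copies with transcripts of 435 bases were 96.3% to 98.9% identical, so the split of reads between copies is uncertain and the sum is the safer value. The 8 copies that were tested (Eif1ad2, Eif1ad6, Eif1ad7, Eif1ad8, Eif1ad10, Eif1ad11, Eif1ad15 and Eif1ad17) were all called, but they passed the filter only because they were present in treated libraries. When counts were divided by 4, to approach fragments, none of the 8 passed the filter. Genes switching from 0 were not rare: of 1364 protein-coding rows at 0 in every control library, 231 (16.9%) were above 0 in every treated library, and 10 rows were so in the opposite direction. Rows above 0 numbered 18681 to 18970 in control and 20621 to 21059 in treated libraries.

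**Figure D3:**
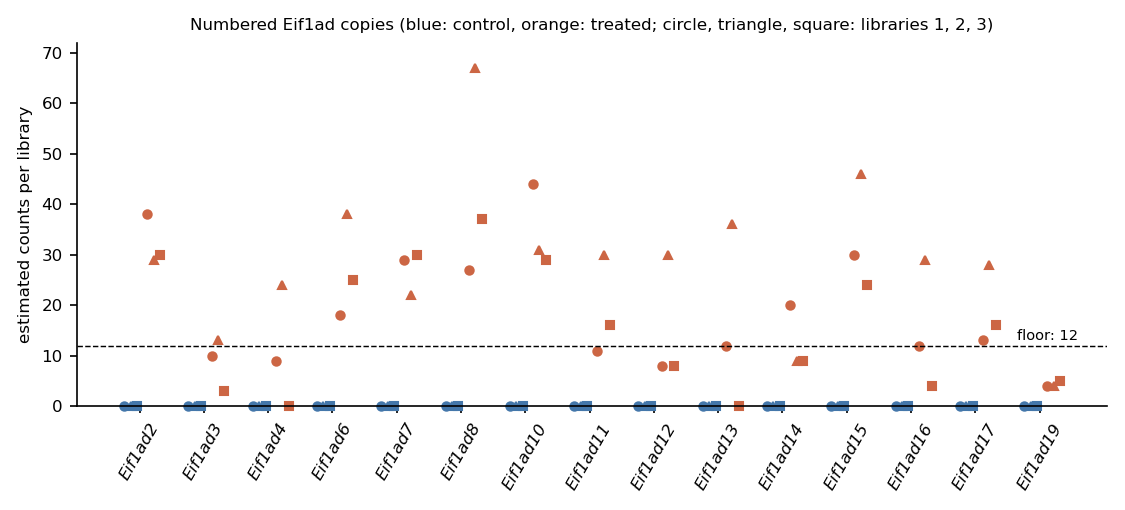
Estimated counts of the 15 numbered Eif1ad copies in each library (blue: control, orange: treated; circle, triangle and square: libraries 1, 2 and 3), with the floor of 12 as a dashed line. Control libraries lie at 0 for every copy, and treated libraries reach up to 67, with 13 copies above 0 in all 3 treated libraries.

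The direction of the members went with the GC content of their transcripts. A split at 45% GC, chosen after the values were seen, put 17 of the 50 members with a mean FPKM of at least 1 below it and 33 above. Below it 10 rose, none fell and 7 did not pass, with a median log2 fold change of 0.48. At or above it 4 rose, 21 fell and 8 did not pass, with a median of -0.34. The 4 were Eif4b, Eif4ebp1, Eif1b and Eif4a3l1, the last at a mean FPKM of 1 only through the treated libraries. Across the 50 genes, Spearman's rho of GC content with log2 fold change was -0.59, and it was -0.26 across 10194 rows at that level. Genes are not independent replicates, and these genes share the same 6 libraries. The libraries numbered 2 differed most among the GC-poor members: control 2 was the lowest control library for 15 of the 17 and treated 2 the highest treated library for all 17, against 10 and 6 of the 33 others. The median coefficient of variation between control libraries was 18.5% in the GC-poor members and 3.95% in the others.

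With a GC correction in each library, most of the calls stood. The rho with log2 fold change went to -0.28 across the 50 members and to 0.02 across all rows at that level. Of the 35 members called among the 50, 26 stayed called in the same direction, 9 were no longer called and none was called in the opposite direction. The 9 were Eif4h, Eif2b5, Eif3f, Eif3g, Eif3j1, Eif4enif1, Eif1ax, Eif2a and Eif5. New calls were Eif2b2, Eif3h, Eif3k and Eif1 as higher and Eif4e, Eif4g2, Eif2b3, Eif3a and Eif3j2 as lower. The corrected fit called 49.1% of 15760 rows, 25.6% as higher and 23.5% as lower. In it the GC-poor members had a median log2 fold change of 0.12, with 6 called higher and 4 lower, and the others a median of -0.22, with 8 higher and 17 lower. The part of GC content in these differences was not tested.

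**Figure D4:**
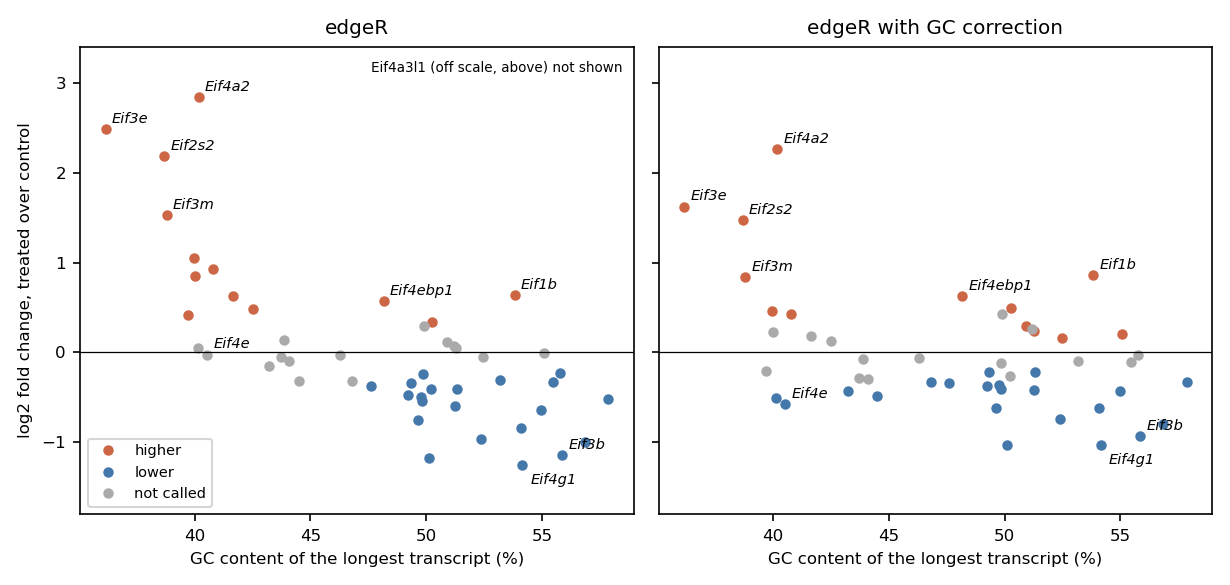
Log2 fold change, treated over control, against GC content of the longest transcript for 49 of the 50 members with a mean FPKM of at least 1 (left: edgeR; right: edgeR with GC correction; orange: called higher, blue: called lower, grey: not called); Eif4a3l1 is off scale. On the left the points called higher crowd below 45% GC and those called lower all lie above it, and on the right Eif4a2, Eif3e, Eif2s2 and Eif3m remain the 4 highest points of the GC-poor members.

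Promoter letters were counted in the 47 members with a 250-base RefSeq window. The E-box CACGTG stood in 8 of them (17.0%), against 6.86% of 27025 genes with a window. The 8 were Eif1b, Eif3f, Eif3k, Eif4a1, Eif4e, Eif4g1, Eif4h and Eif5a, of which 1 rose, 4 fell and 3 did not pass. Of the 36 tested members without it 12 rose, 15 fell and 9 did not pass. Those 12 include the copies Eif1ad2, Eif1ad6 and Eif4a3l1, which passed the filter only through the treated libraries and had to lie higher. ACGTG, the core of the hypoxia response element, which every E-box of this form also holds, stood in 17 members (36.2%, against 18.5% of genes). TGATGNAA, an element of ATF4 with C/EBP factors, stood in 3 (6.38%, against 3.91%): Eif2s3x, Eif1ad2 and Eif1ad6. The matches of Eif1ad2 and Eif1ad6 lie in the stretch that their windows share, so they are not independent. TGANTCA, the AP-1 element, stood in 4 (8.51%, against 7.82%): Eif1, Eif2ak3, Eif3f and Eif3l. Both strands were searched, and a match of letters is a description, not a bound site.

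The genes around the initiation factors changed in both directions as well. Of 59 further genes of translation and its control, 17 rose (28.8%), 24 fell (40.7%) and 18 did not pass. These shares lie near those of all rows averaging 1 FPKM or more (25.7% and 33.4%). Among 12 genes of the eIF2 phosphatase and stress response, 4 rose, 6 fell and 2 did not pass. Ddit3, for the stress transcription factor CHOP, had 27.9, 27.4 and 28.5 FPKM in control and 71.7, 68.1 and 68.6 in treated libraries and rose 2.49-fold (edgeR adjusted p = 1.23e-06). Trib3, which is induced by ATF4 and CHOP in many cells, had 84.1, 78.6 and 77.3 FPKM in control and 30.9, 28.0 and 32.7 in treated libraries and fell to 38.1% of control (edgeR adjusted p = 2.46e-06). Both belong to the stress response downstream of eIF2 phosphorylation, and they moved in opposite directions without overlap. Gcn1, which activates GCN2, fell to 59.3% of control, and Impact, its antagonist, did not pass. Chosen after their values were seen, Atf4, the transcription factor whose mRNA is translated when eIF2 is phosphorylated, fell to 73.6% of control. Ppp1r15a and Ppp1r15b, for the inducible and the constitutive partner of the eIF2 phosphatase, went to 143% and 58.2%, both called.

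Among 16 genes of mTORC1, MNK and S6 kinase control, 4 rose, 8 fell and 4 did not pass. Tsc2, an inhibitor of mTORC1, fell to 54.8% of control, Sesn2, another inhibitor, to 53.3%, and Larp1, which holds back mRNAs of ribosomal proteins, to 63.0%. Named after their values were seen, Ddit4, also an inhibitor, rose to 197% and Tsc1, the partner of Tsc2, to 141% of control. The mTORC1 subunit genes Mtor, Rptor and Mlst8, also named after their values were seen, fell to 71.4%, 67.6% and 73.0%. Mknk2, a kinase of eIF4E, did not pass, at 75.3 ± 2.91 and 74.7 ± 3.07 FPKM (SD, n = 3). Of the 5 genes of poly(A)-binding proteins and partners, 3 rose, 1 fell and 1 did not pass. Paip2, which keeps the poly(A)-binding protein from the tail, rose from 14.4 ± 3.07 to 44.0 ± 6.26 FPKM (log2 fold change 1.57 ± 0.14, edgeR adjusted p = 1.89e-05; 1.01 after GC correction). Pabpc1, the main poly(A)-binding protein, rose to 129% and Pabpc4 fell to 86.0% of control, and both calls were lost after GC correction, and that of Pabpc4 also without both libraries numbered 2 (-0.20). Paip1, named after its values were seen, was called higher (log2 fold change 0.33) but called lower after GC correction (-0.28), which left 1 of the 5 genes higher and 1 lower. Paip2b did not pass.

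Of 6 other initiation and scanning factors, 2 rose, 2 fell and 2 did not pass. Abcf1, which binds eIF2 and ribosomes, fell to 60.8% of control, and the scanning helicase gene Dhx29 to 62.0%. Mcts1 rose to 148% of control, but GC correction turned its log2 fold change from 0.53 to -0.048. Its partner Denr did not pass. Of 9 genes of elongation factors and proteins linked to them, 2 rose, 5 fell and 2 did not pass. Eef1a1, named after its values were seen, rose to 128% of control. Within the eEF1 exchange complex, Eef1b2 rose to 174% of control and Eef1g fell to 69.0%, and Eef2k, the kinase of eEF2, fell to 69.5%. Eef2 itself did not pass, at 93.7% of control, and was called lower without treated 3 (-0.20) and higher after GC correction (0.066). Of 6 termination and recycling genes, 1 rose, 2 fell and 3 did not pass: the recycling factor gene Abce1 rose to 238% of control, the release factor gene Gspt1 fell to 52.3% and the rescue factor gene Pelo to 78.0%, and Etf1 did not pass. The Pelo call was lost after GC correction (-0.20), with upper-quartile scaling (-0.27), without treated 1 (-0.38) and without both libraries numbered 2 (-0.34). Neither of the 2 hypusine enzyme genes passed, and Dohh was at 100.3% of control beside the fall of Eif5a. Of 3 mitochondrial initiation genes, Mtif2 rose to 183% of control and Mtif3 and Mtfmt did not pass. Mtif3 was called higher in 10 of the 21 alternatives, among them GC correction (log2 fold change 0.48) and without control 3 (0.34). The Mtif2 call was lost without control 2 (0.66), control 3 (0.70), treated 1 (0.80), treated 2 (0.60) or both libraries numbered 2 (0.46).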

How the data were processed

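Per the labels' protocols, oligo-dT beads picked out mRNA, dUTP-marked second strands were digested, and fragments were read from both ends. The authors deposited 1 table with an FPKM and an estimated count for each gene and library, per the file headers. Tools in the submitters' processing notes, with no role or order, are StringTie 2.1.6, HISAT2 2.2.1, cutadapt 1.9, edgeR and DESeq2. For build, annotation and strand setting, nothing is stated in the sources used here. The estimated counts were deposited as whole numbers, and values that are multiples of 4 were too frequent (4054 values were 4, and the neighbouring counts averaged 2539.5 values), so 1 fragment may weigh about 4 estimated counts, though many values are no multiple of 4. The floor of 12 estimated counts assumes that weight; a lighter fragment would lower the floor.

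Calls come from the quasi-likelihood test of edgeR 4.0.16 in R 4.3.3 on the estimated counts of all 6 libraries, with the default filter on low counts, TMM scaling and Benjamini-Hochberg adjustment over 16212 rows. A gene was called at an adjusted p under 0.05, and fold changes are log2, treated over control. Group values are mean FPKM with SD, n = 3. The GC correction was a loess offset (span 0.4) on the GC content of the longest GENCODE M21 transcript. Other alternatives were DESeq2 1.42.0, limma 3.58.1 on log2(FPKM + 1), other scalings and filters, a replicate block, and libraries left out. Tested on simulated data (15682 genes, the same group sizes), edgeR found 70% of the 2-fold and 96% of the 4-fold changes and made 6 false calls. The simulation changed only a small share of the genes, none of them among those with the lowest counts. It held no trend with GC content, so these rates need not hold for the data.

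The members and lists were chosen with earlier results of these data known. Every member may be named, and in each further list up to 3 called genes with the smallest p and the most abundant gene not called. Eif2s3y, Eif4e3, Eif5a2 and the leukocyte markers Cd3e and Adgre1 were not analysed here. Promoter windows are from RefSeq (GRCm38.p6) and matched 47 of 69 members.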

Additional observations from a re-analysis of the deposited data

How the results depend on the processing

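Of the 44 members called, 35 (19 higher, 16 lower) were called in each of the 21 alternatives that tested them, and the other 9 are those that the GC correction no longer called. Of the 35, 10 are copies of Eif1ad and Eif4a3 that are at or near 0 in control libraries and entered the test through the treated libraries and had to differ there. The other 25 are 9 higher and 16 lower. Depth limited the 19 members below a mean FPKM of 1, of which 9 were not tested.

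Of the alternatives, limma on log2(FPKM + 1) and on log2(FPKM + 0.1), for rows averaging 1 FPKM or more, each called 13 members higher, and counts divided by 4 called 15. Those fits test fewer of the low members. A minimum mean FPKM of 5 gave 13 members higher, and 2217 rows higher and 2193 lower over all genes. Upper-quartile scaling moved the median log2 fold change of all rows from 0.06 to 0.18 and that of the members from -0.02 to 0.11, and called 4688 rows higher and 3028 lower, against 3735 and 3813. GC correction turned the log2 fold change of Eif2b2 (0.21), Eif3k (0.16), Eif3j2 (-0.51), Eif1ax (-0.20), Mcts1 (-0.048), Eef2 (0.066), Rps6kb1 (-0.66) and Paip1 (-0.28, called in both fits), where a turn is counted only if either value passed the test; the cause was not tested. Leaving out 1 library at a time gave 21 to 27 members higher and 19 to 21 lower, a member median of -0.05 to 0.07, and 2832 to 3572 rows higher and 3241 to 3720 lower over all genes. Without both libraries numbered 2, 20 members were higher and 24 lower.

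Nothing in the labels says whether libraries of the same number were handled together. The correlation of deviations between same-numbered control and treated libraries was -0.01, -0.36 and 0.15. Between libraries of different numbers it ran from -0.35 to 0.37. Deviations from means of 3 libraries cannot decide whether the numbers pair the libraries. With a replicate block, 22 members were called higher and 19 lower, and 3070 rows higher and 3205 lower over all genes. The replicate block with GC correction called 23 members higher and 21 lower, with Eif2b2 at 0.21, Eif3k at 0.16, Eif3j2 at -0.49, Eif1ax at -0.20 and Mcts1 at -0.049.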
